A study of Mus musculus with 38 samples.

Results

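The 7 genes described here move magnesium across cell membranes or control its movement: Cnnm1, Cnnm2, Cnnm3 and Cnnm4 of the CNNM (cyclin M) family, the channels Trpm6 and Trpm7, and the exchanger Slc41a1. They were taken by symbol from 21441 genes measured by RNA-seq in mouse intestinal epithelium, and each had a row in every table. Cnnm1 was picked on its own values in the vitamin D comparisons, for a rise taken to be confined to crypts. Those values are a description and carry no test, and a smaller villus difference is given below. The other 6 were added as its family and as magnesium transporters. All mice were wild type C57BL6/J and vitamin D deficient, and were killed 4 h after an intraperitoneal injection. The treated mice received 1,25(OH)2D3 (calcitriol, the active hormone) at a dose of 10 ng for each g of weight, and the control mice 0.1 ml of a propylene glycol and ethanol vehicle. The labels put the age at 10 to 13.3 weeks, whereas the treatment protocol gives 12 to 14 weeks. Villi and crypts came from 10 to 15 cm of proximal small intestine, loosened with 3 mM EDTA and parted on a 70 µm filter. Colon samples were epithelium scraped from the underlying muscle. Villi had 6 vehicle and 7 vitamin D libraries, crypts 6 and 6, and colon 6 and 7. The sources do not say how many mice stand behind each library, and the sex label reads pooled for all of them. The p-values therefore describe the spread among these libraries, which may in part be technical. Each group mixed libraries of male and of female expression pattern, so its libraries were not all repeats of a single sample.

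Dietary magnesium is taken up by a passive route between epithelial cells and by an active route through them. In the active route TRPM6 and its close relative TRPM7, channels fused to a kinase, admit magnesium at the luminal side, and CNNM4 takes part in its exit at the basolateral side. CNNM2 has the corresponding role in the kidney tubule, SLC41A1 exchanges magnesium for sodium, and inherited loss of TRPM6 or CNNM2 causes low blood magnesium. The hormone acts through the vitamin D receptor, a nuclear receptor that binds DNA at paired copies of a hexamer motif, and is best known in the intestine for raising genes of calcium absorption.

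The values are FPKM, read numbers divided by gene length and by the size of the library, so levels can be set beside each other between genes. The treatment was visible in every library: Cyp24a1, the hormone's degrading enzyme and its most sensitive target, had a median FPKM of 0.977 in vehicle and 3493 in vitamin D villi, 0.462 and 3668 in crypts, and 2.87 and 2893 in colon. A few libraries stood apart. Cyp24a1 was at 62.2 in vehicle villi replicate 6 and 64.7 in vehicle colon replicate 6, against no more than 1.33 and 5.38 in the other vehicle libraries of those tissues, and at 403 in vitamin D colon replicate 7, the lowest treated library. The labels give 4 villus and 4 colon libraries a name that starts with a number, unlike the other libraries, and all 8 had more Ddx3y than Xist, the male pattern, which the replicates numbered 4 shared. In villi the summed FPKM of 8 enterocyte markers was 35149.8 to 60900.5, in colon that of 5 colonocyte markers was 8838 to 22831, and in crypts that of 5 Paneth cell markers was 11484 to 29653. Stroma and muscle markers summed to 2087.5 and 7380.0 in vitamin D colon replicates 1 and 2 and to no more than 309.0 in the other colon libraries. Paneth cell markers summed to 1682.1 in vehicle colon replicate 5 and to no more than 54.0 in the other colon libraries. In villi they ranged from 87.5 to 3015.7, the highest in vehicle replicate 4. Immune cell markers summed to 1114.5 in vehicle villi replicate 5 and to no more than 360.0 in the other villus libraries. In such bulk samples, fewer cells of a type and less RNA per cell cannot be told apart.

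The stretches just before the start sites of Cnnm1, Cnnm2 and Trpm6 are shown because these are the members whose mean level was at least 1.5 times as high after vitamin D in a tissue. Each is the 250 bases before the gene's start in the RefSeq annotation of GRCm38.p6, written 5′ to 3′ on the strand of the gene. Capitals mark a match, on either strand, to AGGTCA, the consensus of the hexamer that the receptor binds, to its variant GGGTCA, to a further variant AGTTCA, or to the form GGTTCA that the mouse osteopontin gene carries. The windows are chr19:43440163-43440412 on the plus strand for Cnnm1, chr19:46761359-46761608 on the plus strand for Cnnm2 and chr19:18749480-18749729 on the plus strand for Trpm6.
Cnnm1: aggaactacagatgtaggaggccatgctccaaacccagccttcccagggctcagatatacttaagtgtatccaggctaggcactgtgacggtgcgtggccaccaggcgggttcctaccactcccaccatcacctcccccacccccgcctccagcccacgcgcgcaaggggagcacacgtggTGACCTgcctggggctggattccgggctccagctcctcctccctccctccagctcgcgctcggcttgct
Cnnm2: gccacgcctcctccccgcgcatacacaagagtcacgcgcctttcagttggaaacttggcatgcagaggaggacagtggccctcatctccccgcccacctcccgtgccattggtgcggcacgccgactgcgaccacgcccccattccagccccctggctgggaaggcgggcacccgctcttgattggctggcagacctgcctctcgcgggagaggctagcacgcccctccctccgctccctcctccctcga
Trpm6: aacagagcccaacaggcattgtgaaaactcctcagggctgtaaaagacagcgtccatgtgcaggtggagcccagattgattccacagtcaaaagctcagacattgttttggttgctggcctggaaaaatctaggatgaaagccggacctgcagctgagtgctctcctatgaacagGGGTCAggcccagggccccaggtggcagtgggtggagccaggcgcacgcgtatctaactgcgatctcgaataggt
The Cnnm1 window held 1 match, TGACCT, which is AGGTCA read on the other strand, and its first base lay 69 bases before the start. The Trpm6 window held 1 match, GGGTCA, 75 bases before the start, and the Cnnm2 window held none. Of the other members, Cnnm3 had 1 match (TGACCT, 235 bases before the start), and Cnnm4, Trpm7 and Slc41a1 had none. No member held the direct repeat of such hexamers spaced by 3 bases that is the classical vitamin D response element. Among 32544 promoter windows of this length, 38.6% held at least 1 hexamer and 0.04% held the direct repeat, so a single hexamer is common. A match is a description of the sequence only.

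Cnnm4 was the most abundant member in all 3 tissues and Cnnm1 or Trpm6 the least abundant. In vehicle villi the order of mean FPKM was Cnnm4 at 28.4 ± 5.18 (SD, n = 6), Trpm7 at 11.7 ± 2.07, Cnnm2 at 5.14 ± 1.23, Cnnm3 at 1.49 ± 0.292, Slc41a1 at 0.605 ± 0.102, Cnnm1 at 0.412 ± 0.135 and Trpm6 at 0.191 ± 0.193. The intervals of 1 SD overlapped between Slc41a1 and Cnnm1 and between Cnnm1 and Trpm6, and between no other neighbours. In vehicle crypts Cnnm4 (35.3 ± 3.06) and Trpm7 (15.3 ± 3.06) again led. Cnnm3 at 4.18 ± 0.882, Slc41a1 at 3.92 ± 1.05 and Cnnm2 at 3.45 ± 1.73 lay within their spread of one another there, above Cnnm1 at 0.882 ± 0.202 and Trpm6 at 0.221 ± 0.109. The colon differed in the place of the luminal channel: Trpm6, last in both parts of the small intestine, came second at 34.2 ± 15.6, behind Cnnm4 at 153 ± 16.8. Trpm7 followed at 15.4 ± 4.82, with an interval of 1 SD that overlapped that of Trpm6, although Trpm6 was the higher in every vehicle colon library. Cnnm3 at 6.33 ± 1.15 and Slc41a1 at 5.48 ± 0.977 overlapped, as did Cnnm2 at 2.15 ± 0.464 and Cnnm1 at 1.53 ± 0.262. The plot of FPKM by library shows these levels for all 7 genes.

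**Figure D1:**
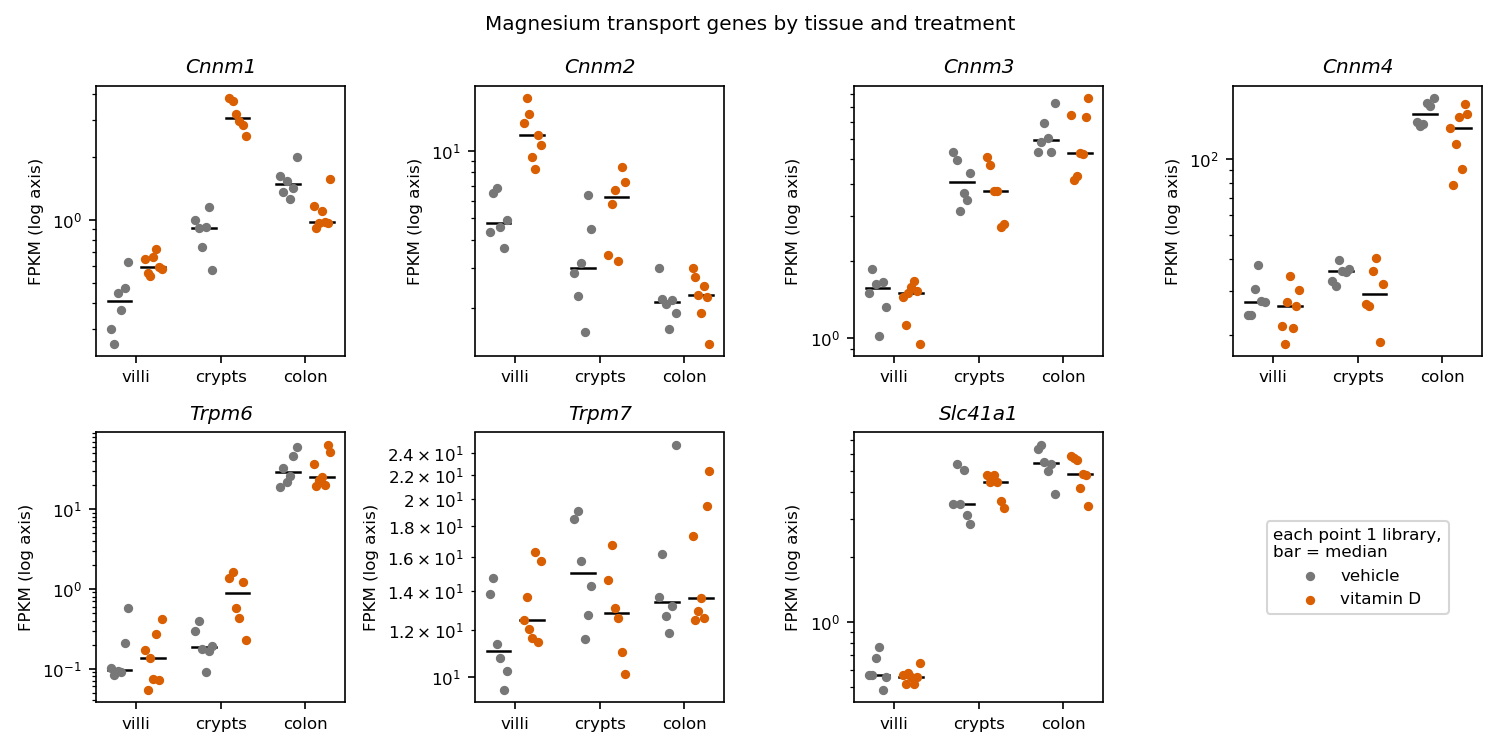
FPKM of the 7 members in each library, on log axes, by tissue; grey points are vehicle and orange points vitamin D libraries, and black bars are group medians. Cnnm1 stands apart between treatments in crypts, Cnnm2 in villi, and Trpm6 lies at 19.1 to 64.2 in colon against no more than 1.64 in villi and crypts.

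The tissues' tables may have been scaled separately, so differences between tissues were read from the authors' deposited tables, which compare the vitamin D libraries pair by pair. In the authors' deposited tables most genes differed between tissues: 61.9% of those tested between crypts and villi, 64.7% between colon and villi, and 56.5% between colon and crypts. Against that background, Trpm6 was higher in colon than in villi by 6.94 on the log2 scale (SE 0.42, adjusted p = 1.32e-60, the authors' deposited table) and than in crypts by 5.17 (SE 0.42). Cnnm4, the basolateral family member, followed the same order between colon and small intestine, by 1.60 (SE 0.18) over villi and 2.00 (SE 0.21) over crypts in the authors' deposited tables. Cnnm2 ran the other way, with colon below villi by a log2 difference of -3.09 (SE 0.20) and crypts below villi by -1.55 (SE 0.25). These are vitamin D libraries, and the tissue differences include the response. In the authors' deposited tables Cnnm2 differed between vitamin D and vehicle by 1.24 in villi, 0.75 in crypts and 0.09 in colon. The vehicle means above lie closer together, though the scaling of their tables may differ. Slc41a1 separated the villi from the rest: it was higher by 2.43 (SE 0.14) in crypts and 2.44 (SE 0.16) in colon than in villi, while colon and crypts differed by 0.14 (SE 0.15, adjusted p = 0.445 in the authors' deposited table). Cnnm3 was higher in crypts than in villi by 0.96 (SE 0.19) and in colon than in crypts by 0.60 (SE 0.22, adjusted p = 0.0127 in the authors' deposited table). Trpm7 showed the smallest spread across tissues, with crypts below villi by -0.52 (SE 0.13) and colon and crypts apart by 0.21 (SE 0.17, adjusted p = 0.306 in the authors' deposited table). For Cnnm1, whose crypt level after the hormone was part of the choice, the deposited difference was 1.88 (SE 0.14) between crypts and villi and -1.62 (SE 0.16) between colon and crypts.

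**Figure D2:**
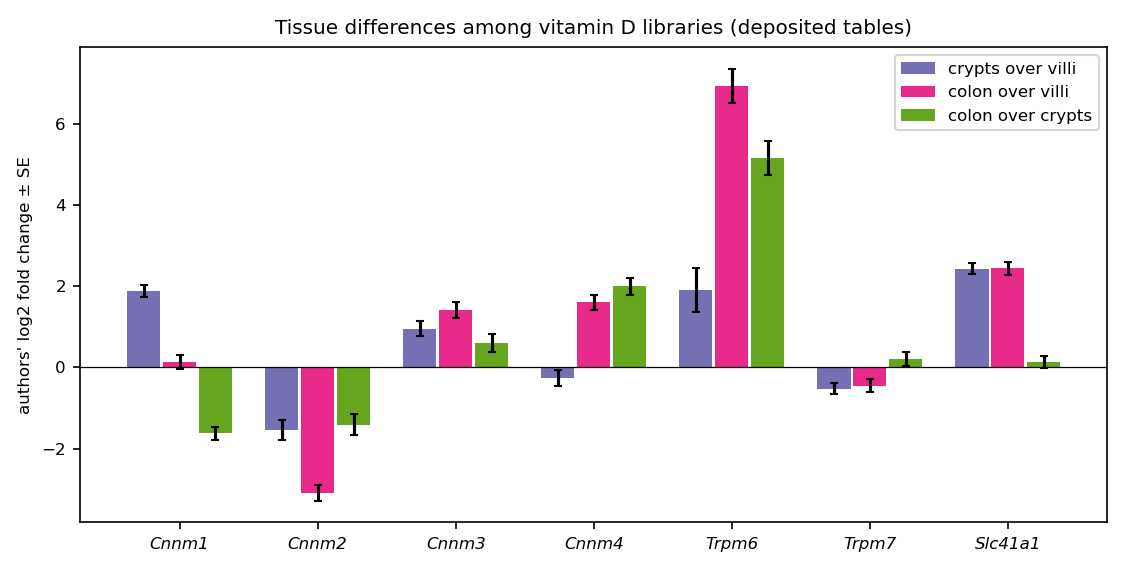
The authors' deposited log2 differences between tissues among vitamin D libraries, with their standard errors, for the 7 members; bars above 0 are higher in the tissue named first. Trpm6 in colon, at 6.94 over villi, has the longest bar, and Cnnm2, at -3.09, the deepest.

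Cnnm2, the family member whose loss lowers blood magnesium, was the member that passed the test for a response to vitamin D, and it did so in villi. Its FPKM in the 6 vehicle villus libraries was 4.34, 6.45, 6.80, 4.60, 3.70 and 4.94 for replicates 1 to 6. In the 7 vitamin D libraries it was 13.3, 17.1, 14.6, 9.38, 8.29, 11.7 and 10.6. Every vitamin D library thus lay above every vehicle library, which held for 1.75% of the 9706 genes tested in villi. Cnnm2 rose by 1.15 on the scale of log2(FPKM + 0.5) (SE 0.17, 95% interval 0.78 to 1.53, limma with Benjamini-Hochberg adjustment over all genes, adjusted p = 0.00169), and its mean FPKM was 2.36 times as high. It was 1 of 4 tested members to pass in villi, where 2.47% of all genes passed. Without vehicle replicate 6, the library with raised Cyp24a1, the log2 change was 1.15 (adjusted p = 0.00535 in limma). Enterocyte markers, whose summed FPKM had a median of 50815 in vehicle and 48553 in vitamin D villi, overlapped between the treatments.

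In crypts Cnnm2 did not pass the test unless the replicate number entered the model. Its FPKM was 2.87, 2.26, 3.18, 1.56, 6.36 and 4.50 in vehicle crypts replicates 1 to 6. In vitamin D crypts it was 3.45, 5.80, 6.69, 3.25, 8.47 and 7.27. The groups overlapped, yet in each of the 6 pairs of libraries with the same number the vitamin D library was the higher. The log2 difference was 0.71 (SE 0.30, adjusted p = 0.284, limma), and none of 5 tested members passed in crypts, where 1.46% of all genes did; 1 had an unadjusted p below 0.05, as did 15.3% of all genes. With replicate number as a block the difference was the same with an SE of 0.14 and an adjusted p of 0.0310 in limma, in a fit that called 4.14% of genes; the same block without the filter on low levels gave 0.0690. The authors' deposited table has 0.75 (SE 0.34, adjusted p = 0.228).

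Enterocyte marker RNA differed widely between the crypt libraries. The summed FPKM of the 8 enterocyte markers was 18823, 13840, 19123, 5769, 40679 and 48855 in vehicle crypts and 6783, 9399, 12643, 10646, 17484 and 29308 in vitamin D crypts. Replicates 5 and 6 were the highest of their group in these markers in both treatments, and they held the highest Cnnm2 values too. The vitamin D median of the markers, 11644, lay below the vehicle median of 18973, in the opposite direction to Cnnm2. The part of these markers in the Cnnm2 difference was not tested. In colon Cnnm2 ranged from 1.61 to 3.00 in vehicle and from 1.39 to 3.02 in vitamin D libraries, with a log2 difference of 0.07 (SE 0.16, 95% interval -0.28 to 0.42, adjusted p = 0.950, limma). None of 6 tested members passed in colon, where 0.823% of all genes passed, and none had an unadjusted p below 0.05.

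The difference of the Cnnm2 response between tissues did not itself pass. Villi exceeded colon by 1.09 on the log2 scale (SE 0.31, adjusted p = 0.150, limma over all 38 libraries), a comparison in which 0.46% of 12164 genes passed. With the style of the library name as a covariate within each tissue the difference was 1.10 (SE 0.24) and the adjusted p was 0.0136 in limma. Villi exceeded crypts by 0.44 (SE 0.32, adjusted p = 0.796, limma), where 0.074% of genes passed. Crypts exceeded colon by 0.64 (SE 0.32, adjusted p = 0.994, limma), where 0.164% passed. No other tested member passed in any of the 3 comparisons of responses. The main fit treated all 38 libraries as independent, so mice shared between tissues, if any, were not modelled. An alternative tied libraries of the same treatment and replicate number across tissues, with a consensus correlation of 0.11.

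**Figure D3:**
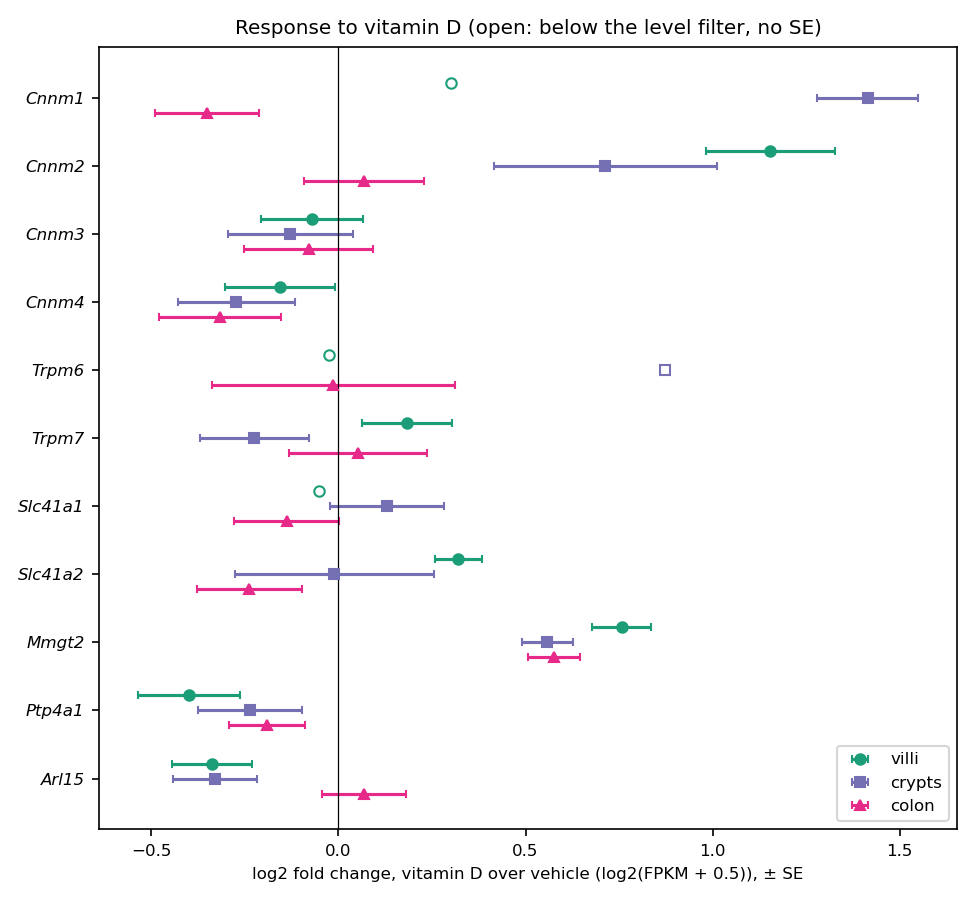
Log2 fold change of vitamin D over vehicle on log2(FPKM + 0.5), with standard errors from limma, for the 7 members and 4 related genes in villi, crypts and colon; open symbols are below the level filter. Cnnm2 in villi lies at 1.15, Cnnm1 in crypts at 1.41, and Mmgt2 between 0.56 and 0.76 in all 3 tissues. Cnnm1 was picked on its own values, so its points and standard errors are a description only.

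Cnnm1, a family member best known from brain, was chosen for its crypt values. Its FPKM was 0.995, 0.912, 0.738, 0.920, 1.15 and 0.575 in vehicle crypts, equal to about 39.1 to 90.3 reads. In vitamin D crypts it was 3.82, 3.72, 3.20, 2.97, 2.85 and 2.53, equal to about 199 to 323 reads. The 2 groups did not overlap, as was the case upwards for 1.23% of the 10733 genes tested in crypts, and the ratio of mean FPKM was 3.60. On the log2(FPKM + 0.5) scale the difference was 1.41, and it was 1.75 with a pseudocount of 0.1 and 1.15 with 1, since the vehicle level is low. In the authors' deposited table it was 1.85 (SE 0.18). Leaving out any 1 crypt library gave 1.34 to 1.47. The gene was picked on these same libraries, so the size and steadiness of the difference are a description and lend no support.

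In villi Cnnm1 was lower and below the filter of FPKM 1 in at least 6 libraries, at 0.301, 0.255, 0.447, 0.372, 0.469 and 0.630 in vehicle libraries. The vitamin D villi held 0.646, 0.558, 0.536, 0.662, 0.728, 0.595 and 0.583, of which 3 of 7 lay above every vehicle library. The log2 difference in villi was 0.30, and 0.57 (SE 0.22) in the authors' deposited table, so the gene was higher there too. In colon the order was the opposite, with 1.63, 1.36, 1.53, 1.25, 1.42 and 1.99 in vehicle libraries. The vitamin D colon libraries were at 1.16, 0.914, 0.964, 1.10, 0.971, 0.963 and 1.57, so 6 of 7 lay below every vehicle library. The log2 difference in colon was -0.35, and -0.42 without vitamin D replicate 7, the library with the lowest Cyp24a1 of its group.

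Markers of neurons, the cells Cnnm1 is best known from, and of enteroendocrine cells overlapped between the treatments in crypts, and their part in the Cnnm1 values was not tested. Of 6 enteric neuron and glia markers, 1 was at 0 in all vehicle crypt libraries and 3 were at 0 in all vitamin D crypt libraries, and their sum was 0.182 to 1.63 FPKM in the former and 0.635 to 0.752 in the latter. The 8 enteroendocrine markers summed to 442 to 781 and to 441 to 758. The 5 genes with the highest correlation with Cnnm1 over the 12 crypt libraries were Cyp24a1 (Pearson r = 0.977), Fam20c (0.973), a secreted-protein kinase, Atoh8 (0.973), a transcription factor, Krt7 (0.972), a keratin, and Prelp (0.969), a matrix proteoglycan. All 5 were higher in vitamin D crypts, with mean FPKM going from 47.4 to 139 for Krt7 and from 9.18 to 126 for Prelp, so the correlations share the treatment. The same likeness over the 13 villus libraries gave, for Cnnm2, the RIKEN gene 2010001E11Rik (0.932), the lysophosphatidic acid receptor Lpar1 (0.931), the lipid-binding protein gene Stard5 (0.928) and the transcription factor gene Rrn3 (0.926), behind a septin whose symbol had been turned into a date (0.971). These 5 genes were higher in vitamin D villi as well, so their correlations with Cnnm2 also share the treatment.

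Trpm6, the luminal magnesium channel, was low in crypts and higher after vitamin D, without passing the limma test. Its FPKM was 0.296, 0.399, 0.176, 0.0919, 0.167 and 0.193 in vehicle crypts, about 10.1 to 41.2 reads. In vitamin D crypts it was 1.37, 1.64, 0.575, 0.433, 1.22 and 0.227, about 23.2 to 168 reads. Of the vitamin D libraries, 5 of 6 lay above every vehicle library and replicate 6 lay within their range. In each of the 6 pairs of the same number the vitamin D library was the higher, and the ratio of the means was 4.13. The gene missed the level filter, and limma with no filter gave a log2 difference of 0.87 (SE 0.25) and an adjusted p of 0.162, in a fit that called 0.924% of genes. Without vitamin D replicate 6 that adjusted p was 0.0478, the only crypt library whose removal took it below 0.05, and with the replicate block and no filter it was 0.0707. The authors' deposited table gives a log2 change of 2.05 (SE 0.49) with an adjusted p of 0.00171, in a comparison that called 4.28% of genes. The difference on the log2(FPKM + 0.5) scale depends on the pseudocount at this level and was 1.49 with a pseudocount of 0.1. The 5 colonocyte markers summed to 331 to 653 FPKM in vehicle and 275 to 420 in vitamin D crypts, and their part in the Trpm6 values was not tested.

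In colon, where Trpm6 is abundant, the 2 treatments overlapped throughout. The vehicle libraries held 19.1, 32.6, 21.9, 26.0, 46.2 and 59.3, and the vitamin D libraries 36.3, 19.8, 23.4, 25.5, 20.0, 64.2 and 52.0. The log2 difference was -0.01 (SE 0.33, 95% interval -0.71 to 0.69, adjusted p = 0.996, limma). The libraries divided by the style of their names. The 4 number-prefixed colon libraries, 2 of each treatment, lay at 46.2 to 64.2 and the other 9 at 19.1 to 36.3, a separation shown by 10.2% of genes tested in colon. The same 4 colon libraries held the 4 highest sums of the 8 enterocyte markers, 1344 to 3251 against at most 1076 in the other 9. They also held the 4 lowest sums of the 7 stroma and muscle markers, 5.27 to 9.67 against at least 16.7. The part of these markers in the Trpm6 values was not tested. In villi the 4 number-prefixed libraries lay at 0.207 to 0.573 and the other 9 at 0.0536 to 0.172, a separation shown by 1.18% of genes. No other member stood apart in this way in either tissue. These 8 libraries share the male pattern of Xist and Ddx3y with the replicates numbered 4, in which Trpm6 was 0.0893 and 0.0743 in villi and 26.0 and 25.5 in colon, within the range of the other libraries. The sources do not say what the naming stands for. Means were 0.191 and 0.172 in vehicle and vitamin D villi, below the filter.

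**Figure D4:**
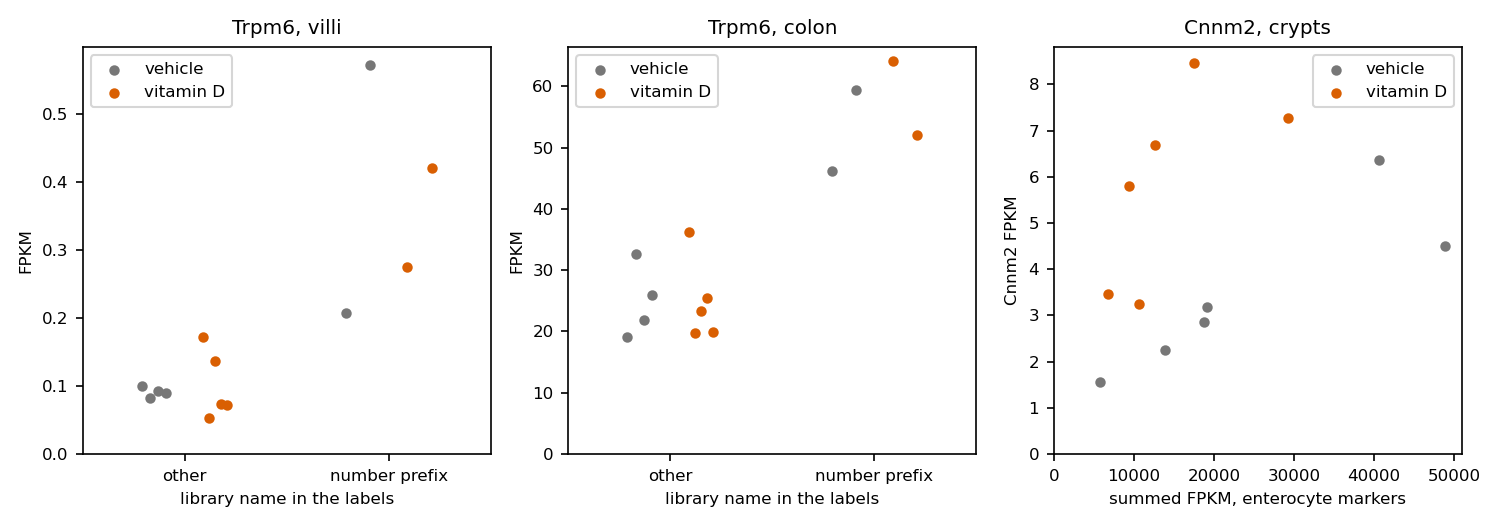
Trpm6 FPKM in villi and colon by the style of the library name, and Cnnm2 FPKM in crypts against the summed FPKM of 8 enterocyte markers; grey points are vehicle and orange points vitamin D libraries. Libraries whose name starts with a number hold the 4 highest Trpm6 values in both tissues, and in crypts the Cnnm2 values of the 2 treatments overlap.

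Cnnm4 did not pass the test in any tissue. Its FPKM in colon ran from 135 to 174 (median 151) in vehicle and from 78.6 to 165 (median 132) in vitamin D libraries, and 4 of 7 vitamin D libraries lay below every vehicle library. The lowest, 78.6, was replicate 2, the library with the highest stroma and muscle markers. The log2 difference of -0.32 (SE 0.16, 95% interval -0.67 to 0.03) had an adjusted p of 0.684 in limma, and was -0.21 without that library. In villi, with means of 28.4 and 25.6, it was -0.16 (SE 0.15, adjusted p = 0.743, limma), and in crypts, with 35.3 and 29.9, it was -0.27 (SE 0.16, adjusted p = 0.435, limma). The difference was negative in all 3 tissues. Cnnm3 had means of 1.49 and 1.40 in villi, 4.18 and 3.81 in crypts, and 6.33 and 6.08 in colon. Its log2 differences were -0.07, -0.13 and -0.08, with adjusted p-values of 0.899, 0.747 and 0.941 in limma.

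Trpm7, the ubiquitous channel and kinase, had means of 11.7 and 13.3 in villi, 15.3 and 13.02 in crypts, and 15.4 and 15.8 in colon. Its log2 differences of 0.18, -0.22 and 0.05 had adjusted p-values of 0.611, 0.498 and 0.969 in limma. The highest of its 38 values, 24.8, was in vehicle colon replicate 6. Slc41a1, the sodium-dependent exchanger, stayed below the filter in villi (0.605 and 0.562). In crypts its means were 3.92 and 4.27, with a log2 difference of 0.13 (adjusted p = 0.721, limma). In colon they were 5.48 and 4.93, with a difference of -0.14 (adjusted p = 0.889, limma). For these 4 genes, the 95% intervals of the log2 differences that were tested reached from -0.67 at the lowest to 0.46 at the highest.

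Of 16 other magnesium transporter genes, Mmgt2 passed in all 3 tissues and Slc41a2 in villi. The counts were 2 of 12 tested in villi, 1 of 12 in crypts and 1 of 14 in colon, all higher, and none fell. Of all genes tested, 2.47% passed in villi, 1.46% in crypts and 0.823% in colon. The list's median log2 difference was 0.04, -0.02 and -0.07, beside -0.01, -0.01 and 0.00 for all genes tested. Mmgt2 encodes a membrane protein that carries magnesium in the Golgi and endosomes. Its FPKM in villi was 9.77 to 12.1 (median 10.5) in vehicle and 15.8 to 20.2 (median 18.8) in vitamin D libraries, a rise of 0.76 (SE 0.08, adjusted p = 0.000151, limma). In crypts it was 13.5 to 16.9 against 21.0 to 24.04, a rise of 0.56 (SE 0.07, adjusted p = 0.000841, limma). In colon it was 16.6 to 19.7 against 24.5 to 29.6, a rise of 0.58 (SE 0.07, adjusted p = 0.000975, limma). No vitamin D library of any tissue overlapped the vehicle libraries. All vitamin D libraries lay above all vehicle libraries for 1.75% of genes tested in villi, 1.23% in crypts and 0.754% in colon.

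Slc41a2, a relative of Slc41a1, was at 21.3, 21.5, 19.5, 21.0, 20.9 and 21.1 in vehicle villi. It was at 23.1, 27.3, 25.7, 28.6, 25.4, 26.7 and 26.7 in vitamin D villi. The 2 groups did not overlap, as was the case upwards for 1.75% of genes tested in villi. Slc41a2 rose by 0.32 (SE 0.06, adjusted p = 0.0136, limma). With the replicate block, which leaves out vitamin D replicate 7, the log2 change was 0.31 and the adjusted p 0.0487, or 0.0556 with no filter. The pairing used in that block is uncertain in villi. With replicates 1 to 4 of each group alone, whose names follow one plain style, the change was 0.32 and the adjusted p 0.194 in limma. In crypts its log2 difference was -0.01 (SE 0.27, adjusted p = 0.988, limma) and in colon -0.24 (SE 0.14, adjusted p = 0.777, limma).

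**Figure D5:**
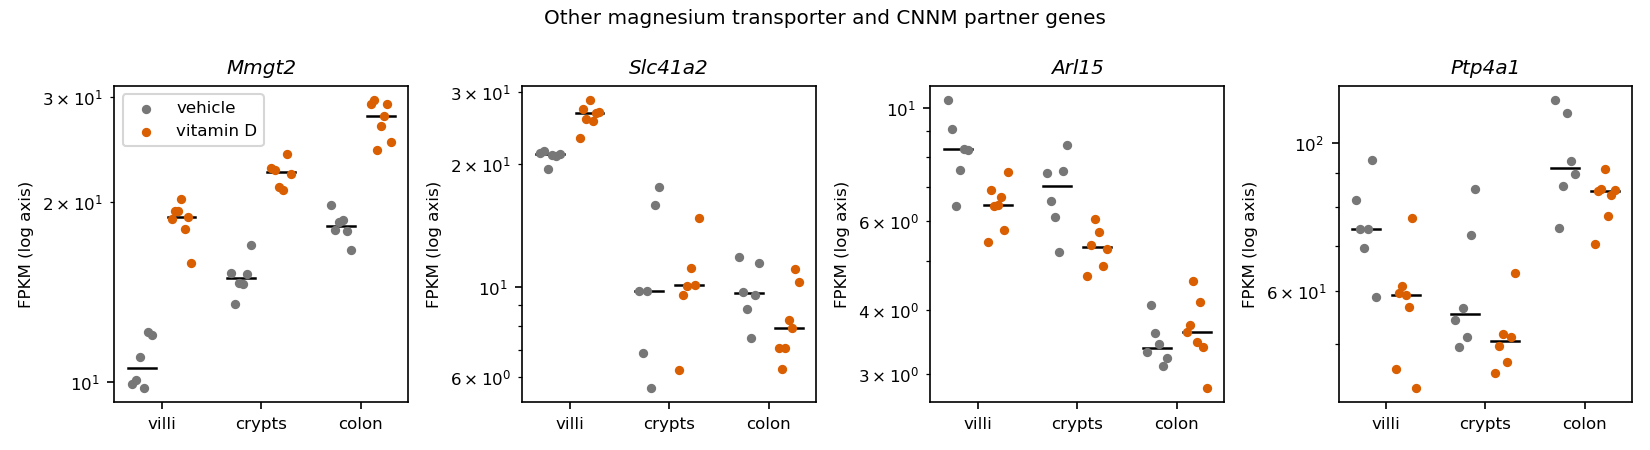
FPKM of Mmgt2, Slc41a2, Arl15 and Ptp4a1 in each library, on log axes, by tissue; grey points are vehicle and orange points vitamin D libraries, and black bars are group medians. The Mmgt2 groups do not overlap in any tissue and the Slc41a2 groups do not overlap in villi.

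Proteins that bind the CNNM family were not called in any tissue. These are the PRL phosphatases Ptp4a1, Ptp4a2 and Ptp4a3 and the small GTPase Arl15, of which 3 were tested in villi, 3 in crypts and 4 in colon. Arl15 was at 6.40 to 10.4 (median 8.29) in vehicle and 5.46 to 7.47 (median 6.44) in vitamin D villi, with a log2 difference of -0.34 (SE 0.11, adjusted p = 0.147, limma). In crypts it was at 5.196 to 8.47 and 4.68 to 6.05, with a difference of -0.33 (SE 0.11, adjusted p = 0.183, limma). Without vehicle crypt replicate 4 the adjusted p was 0.0259 in limma, in a fit that called 1059 genes, against 157 with all crypt libraries. The groups overlapped in villi and in crypts. Ptp4a1 had a difference of -0.40 in villi (adjusted p = 0.198, limma), from a mean of 75.5 to 57.4. The list's median log2 difference was -0.34 in villi, -0.24 in crypts and 0.03 in colon. At an unadjusted p below 0.05 there were 2 in villi, 1 in crypts and none in colon, beside 12.2%, 15.3% and 8.05% of all genes tested.

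The 4 mitochondrial carriers of ATP and magnesium, of which 3 were tested in each tissue, were not called either, and 1 had an unadjusted p below 0.05, in colon, as did 8.05% of all genes tested there. Slc25a25 differed by -0.55 in colon (adjusted p = 0.457, limma) and Slc25a24 by -0.31 in crypts (adjusted p = 0.366, limma). Of 8 genes that regulate magnesium balance, such as Egf, the hormone that acts on TRPM6, and its receptor Egfr, 3 were tested in villi, 3 in crypts and 4 in colon. None was called, and none had an unadjusted p below 0.05 in limma.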

How the data were processed

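RNA-seq of 38 libraries was analysed from processed tables. The authors deposited FPKM of 21441 genes for each tissue. Per the file headers, their deposited comparison tables hold the mean signal of each gene, the log2 fold change with its standard error, a test score, and the p-value before and after adjustment. The submitters' processing notes name kallisto 0.45.0, DESeq 1.28.1, DESeq2 and mm9; their roles are not stated. Coordinates are therefore limited to the RefSeq promoter windows of GRCm38.p6.

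Within each tissue's table, limma 3.58.1 in R 4.3.3 (lmFit, eBayes with trend) compared vitamin D with vehicle on log2(FPKM + 0.5). A gene was tested if 6 or more libraries had an FPKM of at least 1. P-values were adjusted by the Benjamini-Hochberg method over all genes tested, at 0.05; a fold change on this scale understates that of low genes. Responses were compared between tissues by contrasts in a joint limma fit, with no term for mice that tissues may share. The script was tested on simulated data. The members and the gene lists were chosen with earlier results of these data known. Named were the 7 members and, of each other magnesium list, every gene past the threshold or up to 2 genes of smallest p, of which a selection is printed and 1 gene is not reported here; the genes most like Cnnm1 in crypts and Cnnm2 in villi were the 5 of highest correlation. Of 114 listed genes, 110 matched by symbol, 2 by a RefSeq synonym, and 2 (Olfm4 and Defa24) were not analysed here.

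Depth was read from the steps between low FPKM values. A library held about 13.8 to 17.6 M reads (median 15.8 M). Of low values (under 30 reads), 37.0% to 90.3% came within 0.05 of whole numbers, so no count model was run and read numbers are approximate. No pair of libraries of a group matched within counting error; the closest had a chi-square of 12.0 for each degree of freedom. Libraries with the same replicate number in vehicle and vitamin D deviated together in villi (r over genes 0.102 to 0.465) and crypts (0.119 to 0.545), and in colon less evenly (0.0569 to 0.572). Replicate number, taken from the sample titles, was therefore read as a pairing in villi and crypts, with limits. Only 3 of 6 vehicle libraries in each correlated best with their own number, and villus pair 6 joins a library of male with one of female pattern. By the deposited library names, vehicle villi replicate 6 instead matches vitamin D villi replicate 7, which the block leaves out. In colon the number-prefixed libraries also pair otherwise by those names than by the titles. Alternatives were other pseudocounts, no filter, median-of-ratios rescaling, the replicate block, each library left out, replicates 1 to 4 alone (the plain-named libraries), and name style or sex pattern as a covariate. Name style as a covariate set the plain-named libraries against all others.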

Additional observations from a re-analysis of the deposited data

Results flagged for a closer look

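Of 42 sets of values (7 genes in 6 groups), 3 held a library far from the others of its group. By chance about 1 in 20 sets would, so 3 of 42 is near that rate and the 3 are listed as a description. Trpm6 in vehicle villi replicate 6 was at 0.573 FPKM, with the nearest library at 0.207. Cnnm1 in vitamin D colon replicate 7 was at 1.57, with the nearest at 1.16. Trpm7 in vehicle colon replicate 6 was at 24.8, with the nearest at 16.2. All 3 libraries have a name that starts with a number, and Cyp24a1 in them was 62.2 (villi) and 64.7 (colon) in the vehicle libraries and 403 in the vitamin D library, also far from the rest of their groups.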

How the results depend on the processing

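The call of Cnnm2 in villi held under every alternative tried, with a log2 change of 1.07 to 1.24 (limma adjusted p of 0.00149 to 0.00589) when each library was left out and an adjusted p of 0.0348 with plain-named libraries alone. Mmgt2 likewise passed in all 3 tissues under every alternative, with a highest adjusted p of 0.0387 in limma (colon, plain-named libraries). Among the members and the related genes that were followed, no called gene reversed direction. The whole table was not checked for this. The number of genes called over the whole table was less stable: 240 in villi became 92 with plain-named libraries (89 higher and 3 lower) and 436 in the authors' deposited table. In crypts 157 became 68 with plain-named libraries, 391 with name style as a covariate, 272 with the sex pattern, and 550 in the authors' deposited table. Leaving out 1 library gave 172 to 220 in villi, 105 to 1059 in crypts, the highest without vehicle replicate 4 (613 higher and 446 lower), and 66 to 141 in colon; the cause was not tested. In colon 95 became 246 in the authors' deposited table. With the replicate block, 444 genes were called in crypts (249 higher and 195 lower), 252 with no filter (171 and 81), and 148 in colon, where the block leaves out vitamin D replicate 7 and the pairing is not established; the magnesium members called in crypts went from 0 to 1, Cnnm2. The authors' deposited table also calls 1, Trpm6. The block changed no other member's call. Of genes whose response differed between tissues, villi against crypts went from 9 to 5 with plain-named libraries, villi against colon from 56 to 160 with name style as a covariate, and crypts against colon from 20 to 11 with a pseudocount of 0.1 and 12 with plain-named libraries. Depth limits Cnnm1 in villi (19.1 to 55.8 reads) and Trpm6 in villi (5.03 to 65.9 reads), where fold changes rest on few reads.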
